A study of Mus musculus with 8 samples.

Results

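The genes described here encode the proteasome (symbols beginning Psm, a letter from a to g and a digit) and the eukaryotic translation initiation factors (symbols beginning Eif and a digit). They were chosen by symbol among the protein-coding genes of GRCm38.p6, which gave 107 of 21887 genes, 51 in the proteasome family and 56 in the initiation family. The name rule also takes in genes that are not subunits of either machine, such as the eIF2 kinases, the cap-binding repressors Eif4ebp1 to Eif4ebp3, the recombination cofactor gene Psmc3ip and the activator-interacting gene Psme3ip1. Their chromatin accessibility was read from 1 list of ATAC-seq regions, made by inserting adapters into open DNA with the transposase Tn5. The cells were mouse iPSCs (induced pluripotent stem cells), a clonal line with the cell cycle reporter FUCCI2. The series held 8 libraries of 50000 cells each, in 4 groups of 2 replicates that the labels do not describe as separate cultures. These were cells arrested with nocodazole at 200 ng/ml for 6 hours and collected by shake-off, cells 1 hour and 3 hours after release from that arrest, and untreated asynchronous cells. In all 4 groups the medium held serum, LIF, a MEK inhibitor and a GSK3 inhibitor, and irradiated feeders lay under the cells. The list gives the positions of 76872 regions without any value for single libraries. The values below therefore describe the series as 1 set, with no difference between groups, no replicate error and no test, and the depth is unknown. A region from the feeder cells cannot be told apart from a region of the stem cells in this list.

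The proteasome degrades proteins tagged with ubiquitin. Its 20S core is a barrel of alpha and beta subunits, of which the beta subunits of Psmb5, Psmb6 and Psmb7 cut peptide bonds, and its 19S cap holds a ring of ATPases and a set of non-ATPase subunits that bind, unfold and deubiquitinate the substrate. Interferon-induced immunoproteasome subunits encoded by Psmb8, Psmb9 and Psmb10 take the places of Psmb5, Psmb6 and Psmb7 and favour peptides for antigen presentation. In translation initiation, eIF2 brings the initiator tRNA, eIF3 holds the small ribosomal subunit together with the other factors, and eIF4F (the cap-binding eIF4E, the scaffold eIF4G and the helicase eIF4A) recruits the mRNA. Pluripotent stem cells are known for high proteasome activity and for tightly controlled protein synthesis.

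The promoters of the catalytic subunits are shown first, because regions covered some of these starts and not others. The windows run from 200 bases before the annotated start to 30 bases from it, 5′ to 3′ on the strand of the gene, from the RefSeq promoter table of GRCm38.p6. Capitals mark matches to any of 10 short motifs listed further on. Psmb7 has no entry in that table. The windows are chr14:54617966-54618195 (minus strand) for Psmb5, chr11:70525157-70525386 (plus) for Psmb6, chr17:34197995-34198224 (plus) for Psmb8, chr17:34187301-34187530 (minus) for Psmb9 and chr8:105938363-105938592 (minus) for Psmb10.
Psmb5: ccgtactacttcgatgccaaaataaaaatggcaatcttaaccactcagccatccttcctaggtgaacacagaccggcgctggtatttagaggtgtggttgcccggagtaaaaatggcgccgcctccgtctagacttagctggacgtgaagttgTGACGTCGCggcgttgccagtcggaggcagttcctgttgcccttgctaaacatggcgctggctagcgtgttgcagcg
Psmb6: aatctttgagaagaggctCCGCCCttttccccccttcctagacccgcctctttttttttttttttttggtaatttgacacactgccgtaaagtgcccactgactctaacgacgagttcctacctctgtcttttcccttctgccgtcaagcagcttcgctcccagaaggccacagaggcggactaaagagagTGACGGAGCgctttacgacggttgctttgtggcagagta
Psmb8: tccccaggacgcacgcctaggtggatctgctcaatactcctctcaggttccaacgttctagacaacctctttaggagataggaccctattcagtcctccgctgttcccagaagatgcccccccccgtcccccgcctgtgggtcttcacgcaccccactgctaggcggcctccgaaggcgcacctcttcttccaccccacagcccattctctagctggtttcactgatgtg
Psmb9: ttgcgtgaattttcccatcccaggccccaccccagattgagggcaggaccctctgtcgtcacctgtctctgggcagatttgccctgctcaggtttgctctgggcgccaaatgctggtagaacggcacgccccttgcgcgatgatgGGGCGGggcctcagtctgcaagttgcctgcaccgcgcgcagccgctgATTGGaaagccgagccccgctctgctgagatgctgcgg
Psmb10: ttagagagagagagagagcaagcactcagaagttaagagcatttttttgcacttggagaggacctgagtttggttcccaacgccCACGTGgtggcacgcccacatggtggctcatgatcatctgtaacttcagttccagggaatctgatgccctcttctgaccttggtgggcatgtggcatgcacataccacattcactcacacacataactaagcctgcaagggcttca

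The region at Psmb5 covered the annotated start, from 127 bp upstream to 405 bp downstream, and was 533 bp wide. At Psmb6 a region of 589 bp reached from 298 bp upstream to 290 bp downstream, and a second of 73 bp lay 0.542 kb downstream. Psmb7 had a region of 794 bp over its upper limit. All 3 constitutive catalytic genes were thus covered at a gene end. Of the immunoproteasome genes, Psmb9 was covered by a region of 763 bp, from 525 bp upstream to 237 bp downstream of its start. Psmb8, which encodes the subunit LMP7, had no region over its start: the nearest, of 317 bp, ended 467 bp upstream, and another of 341 bp lay 0.587 kb beyond its far end. Psmb10, which encodes MECL-1, had no region within 1 kb of either limit. A region of 298 bp lay inside this gene, 1.249 kb downstream of the annotated start. Psmb11, the beta subunit gene of thymic epithelium, had no region touching it, and the nearest, 7.188 kb upstream, was the start region of its neighbour Psmb5. The groups of 3 genes are too small for more than these values.

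**Figure D1:**
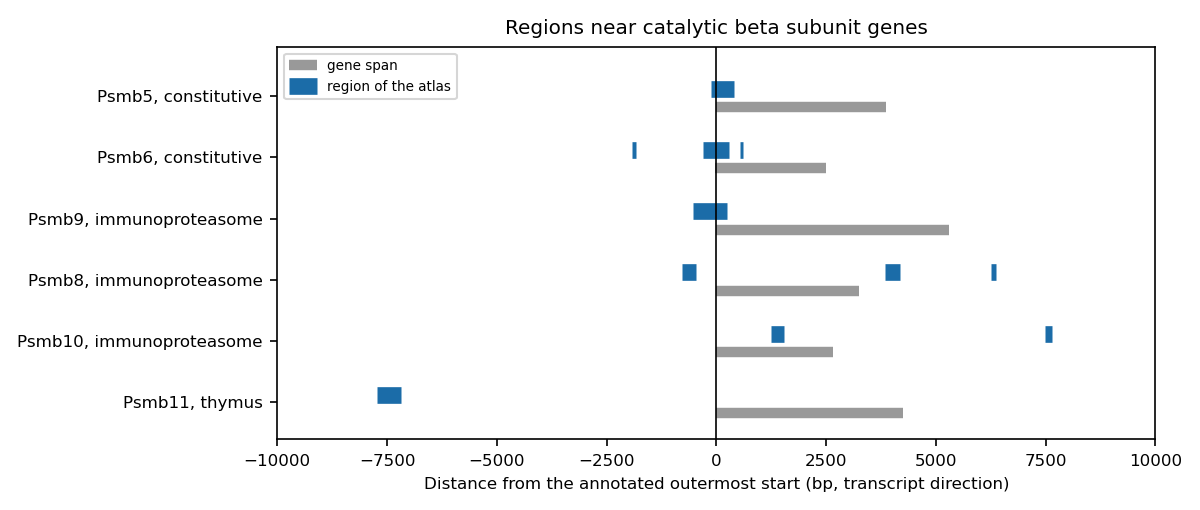
Regions of the atlas (blue) and gene spans (grey) around the outermost annotated start of 6 beta subunit genes, with distance from the start in bp along the transcript on the x axis. Regions cover the starts of Psmb5, Psmb6 and Psmb9, while those near Psmb8, Psmb10 and Psmb11 lie away from the start.

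The region at Psmb9 also covered the start of Tap1, which encodes a subunit of the peptide transporter of antigen presentation. The starts of these genes lie 226 bp apart on opposite strands, so the region cannot be credited to Psmb9 alone. The region upstream of Psmb8, at chr17:34197412-34197728, lay between the far end of Tap1 and the start of Psmb8. Tap2, which follows Psmb8, had a region of 130 bp at an end. No distal region (one farther than 1 kb from the limits of all protein-coding genes) lay within 50 kb of Psmb8, and 1 lay within 50 kb of Psmb9, against 7 for Psmb5, 2 for Psmb6 and 12 for Psmb7. Psmb10 had 3. Among 10 genes of antigen processing listed as partners, 9 had a region within 1 kb of an outer limit (95% Wilson interval 59.6 to 98.2%), against 62.0% of all protein-coding genes, a share inside that interval. Those named here were picked after their values were seen. They included B2m with a region of 718 bp and Irf1 with 1095 bp, while H2-K1 had a narrow one of 171 bp. Nlrc5, which encodes the activator of class I genes, had none at an end and 2 inside.

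Nearly all members had a region at a gene end, meaning within 1 kb of either outer limit. In the proteasome family 46 of 51 genes had one (90.2%, 95% Wilson interval 79.0 to 95.7%), and in the initiation family 53 of 56 (94.6%, interval 85.4 to 98.2%). Over all protein-coding genes the share was 62.0%. The intervals of the families overlap and cover counting error only. Each of the 129 regions at the members' ends belonged to 1 member, so no region was counted for a second one.

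The constitutive core followed this pattern subunit by subunit. All 17 genes of the 19S ATPases and non-ATPases had a region at an end, as did all 7 constitutive beta subunit genes and 6 of 7 alpha subunit genes. All 4 genes of the 20S assembly chaperones (Psmg1 to Psmg4) and all 3 of the 19S assembly or accessory factors (Psmd5, Psmd9 and Psmd10) had one too. Among the proteasome activators, which open the core without ubiquitin, Psme1 to Psme4 had a region and the short gene Psme2b had none. In the initiation family, all genes of the eIF2B exchange factor (5 of 5), the eIF2 kinases (4 of 4) and the cap-binding factors (4 of 4) had a region at an end, and 13 of 14 genes of eIF3.

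The 8 members without a region at an outer limit fell into distinct cases. In 3 of them, a region inside the gene covered an annotated start that was not the outermost limit. Psma6, which encodes an alpha subunit, had a region of 750 bp over its inner start, 14.1 kb from the lower limit. Psmf1, the gene of the proteasome inhibitor PI31, had one of 546 bp over its start, and Eif4g3 had one of 607 bp, 1.265 kb from its lower limit. Psmb10 had the inner region described above. The other 4 had no region touching the gene, namely Psmb11, Psme2b, Eif3j2 and the Y-linked Eif2s3y. Psme2b and Eif3j2 are copies of Psme2 and Eif3j1, and Eif2s3y has a close copy, Eif2s3x, on the X chromosome. Reads from such copies can map to either place, and the sources used here do not say how the authors treated them. Eif2s3x had a region of 1362 bp over its start.

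The windows at both annotated starts of Psma6 are printed to set the uncovered against the covered start of 1 gene, a pair chosen after its values were seen. The outer start window lies at chr12:55384022-55384251 and the inner one at chr12:55398625-55398854, both on the plus strand.
Psma6 outer start: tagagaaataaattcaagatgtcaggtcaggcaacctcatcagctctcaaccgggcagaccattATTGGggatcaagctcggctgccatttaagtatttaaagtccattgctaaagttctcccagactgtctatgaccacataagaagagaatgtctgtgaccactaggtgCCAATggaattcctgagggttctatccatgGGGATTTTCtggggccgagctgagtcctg
Psma6 inner start: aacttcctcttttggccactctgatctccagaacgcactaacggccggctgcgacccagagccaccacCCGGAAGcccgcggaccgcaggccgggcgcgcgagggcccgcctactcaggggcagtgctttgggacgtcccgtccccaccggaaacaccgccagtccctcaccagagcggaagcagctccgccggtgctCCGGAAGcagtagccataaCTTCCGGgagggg

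In the window of 300 bases at the outer start of Psma6, 46.7% of bases were G or C and 3 CpG pairs were found. At the inner start the share was 65.0%, with 22 CpG pairs and 3 matches to the ETS core, of which 1 began 2 bases before the start. Only the inner window was covered by a region, over all 300 bases. The windows of Psmb5 and Psmb6 held 20 and 15 CpG pairs and that of Psmb9 held 17, while those of Psmb8, Psmb10 and Psmb11, which no region touched, held 11, 3 and 4. The count of CpG pairs did not separate covered from uncovered starts among members in general. The covered windows of Psma3 and of the outer start of Psme2 held 10 and 11 pairs, and the window of Eif1b, whose start no region covered, held 50. A region did overlap 25 bases of that Eif1b window. Among member windows that no region touched, the highest count was 14, at Eif2s3y. The lowest count in a window with a covered start was 9, at Eif2b5.

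Starts were annotated for 87 of the 107 members in the promoter table. A region covered a start in 38 of 43 such proteasome genes (88.4%) and in 40 of 44 initiation genes (90.9%), against 53.3% of all genes with an annotated start. In 74 members the covering region was also a region at an outer limit. These had a median width of 803.5 bp, and reached a median of 406 bp upstream and 344 bp downstream of the start. For the 8404 such genes in the whole annotation the medians were 717.5 bp, 346 bp and 322 bp. The region extended farther upstream than downstream in 42 of the 74 members (56.8%), against 52.6% of all such genes. Where a region covered several starts, these distances ran from the start with the lowest coordinate. On the minus strand, as at Eif5a and Psme2, that is the innermost covered start, which lengthens the upstream part.

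**Figure D2:**
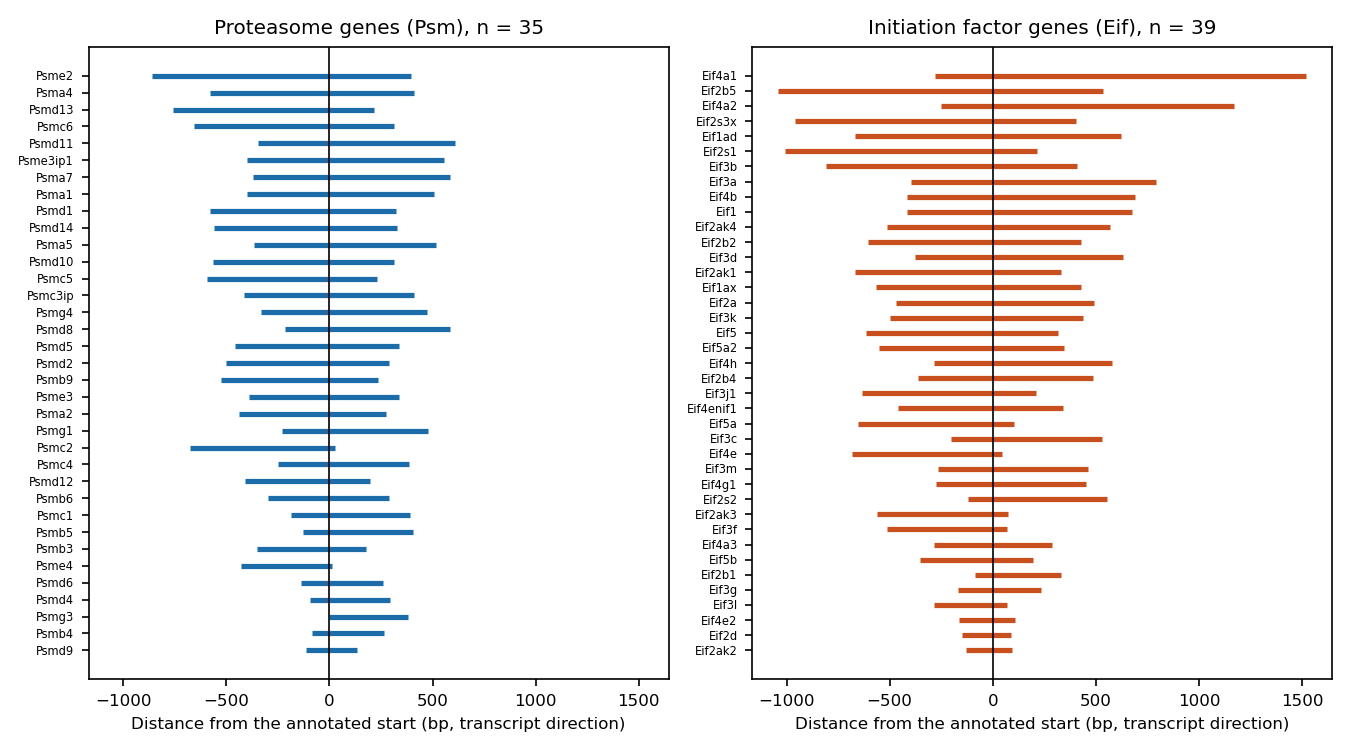
Extent of the widest region at a gene end that covers the annotated start, in bp from the start along the transcript, for 35 proteasome genes (left) and 39 initiation factor genes (right), sorted by width. The median width is 789 bp on the left and 862 bp on the right, and the widest, at Eif4a1, reaches 1516 bp downstream. Where several starts are covered, distances run from the one with the lowest coordinate.

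The widest region at an end had a median width of 769 bp in the proteasome family (quartiles 559 and 884 bp) and 755 bp in the initiation family (581 and 1011 bp). Over the 13567 protein-coding genes that had such a region, the median was 660 bp (quartiles 434 and 884.5 bp). That value lay inside the interval of the proteasome median, 622 to 826 bp. It lay just below the interval of the initiation median, 674 to 935 bp. The upper tail was longer in the initiation family. Its widest regions lay at Eif4a1 with 1795 bp, Eif2b5 with 1576 bp and Eif4g2 with 1511 bp, which encode the helicase of eIF4F, the catalytic subunit of eIF2B and a scaffold that works without cap-binding. The region at Eif4a1 also lay at the far end of its neighbour Senp3. Psme2, which encodes the beta subunit of the interferon-induced activator PA28, had the widest of the proteasome family at 1258 bp, followed by Psma3 with 1066 bp and Psma4 with 991 bp. The region at Psma4 also lay at ends of its neighbours Hykk and AY074887. The region at Psma3 lay 0.097 kb outside its lower limit, and its annotated start was covered by another region, of 919 bp, inside the gene. Within the 20S core, the alpha subunit genes had wider regions, with a median of 932 bp and a range of 710 to 1066 bp, than the constitutive beta subunit genes, with 533 bp and a range of 351 to 794 bp. These are 6 and 7 genes, Psma6 having no region at an end, and the contrast was not tested. The regions of Psma2, Psma4 and Psma7 also lay at an end of a neighbour, as did that of Psmb3 among the beta genes.

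The narrowest were found at genes with restricted roles as well as at subunit genes. In the proteasome family they were 249 bp at Psmd9, a chaperone of 19S assembly, 341 bp at Psmb8 and 346 bp at Psme1, the partner of Psme2 in PA28. The region at Psme1 ended 3 bp before the annotated start. In the initiation family they were 73 bp at Eif4ebp3, the smallest width in the atlas, 81 bp at Eif4a3l1, a copy of Eif4a3, and 223 bp at Eif2ak2, which encodes the interferon-induced kinase PKR. The regions of 341 bp at Psmb8 and 81 bp at Eif4a3l1 lay at the far end of the gene. No region lay within 1 kb of the annotated start of Eif4a3l1, and the one at the start side of Psmb8 had 317 bp. The other eIF2 kinase genes, named after their values were seen, had wider ones, of 999 bp at Eif2ak1, 636 bp at Eif2ak3 and 1078 bp at Eif2ak4. The testis-specific alpha subunit gene Psma8 had a region of 377 bp, against 955 bp at its constitutive counterpart Psma7.

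**Figure D3:**
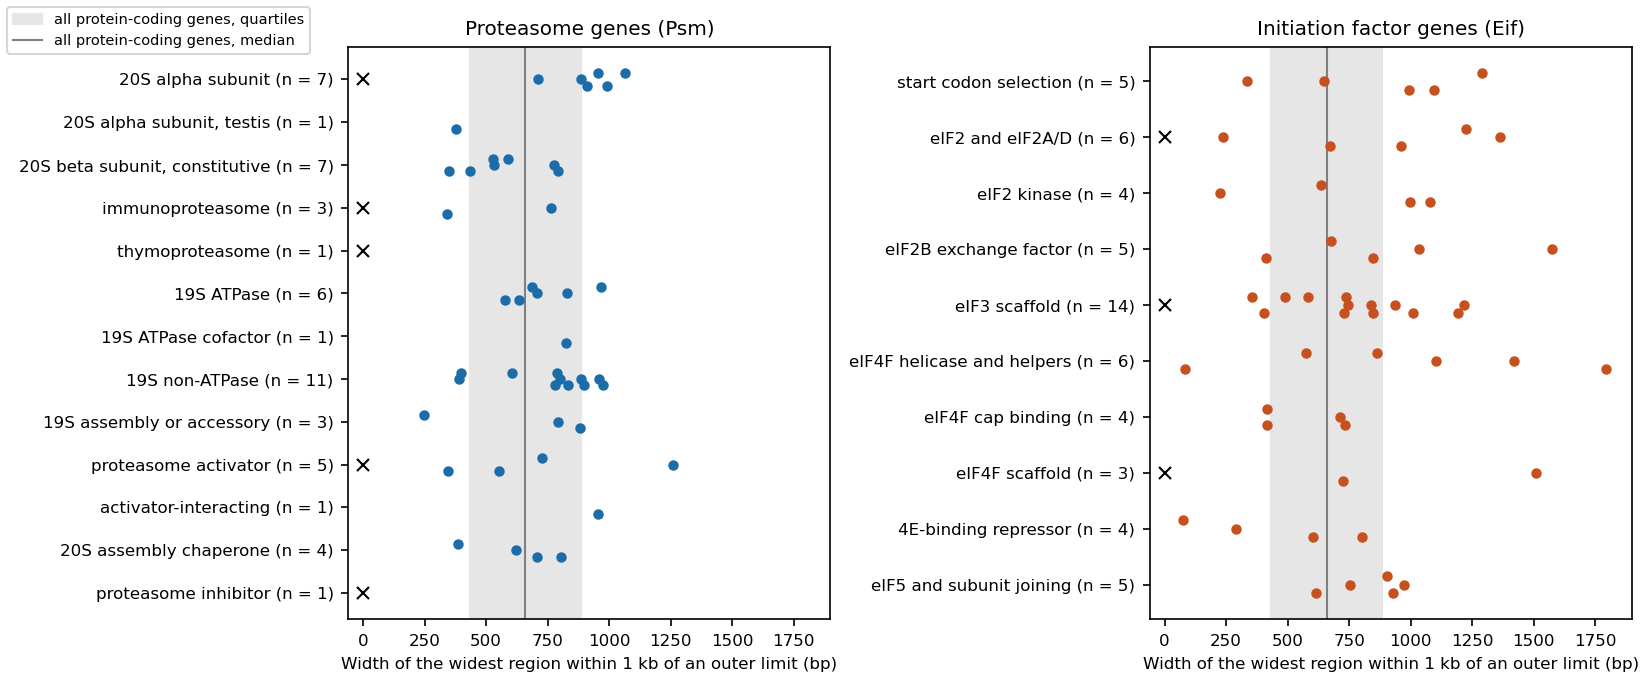
Width in bp of the widest region within 1 kb of an outer limit for each member, by role, with crosses at 0 for the 8 members that have none. The grey band and line give the quartiles and the median of all protein-coding genes, 434 to 884.5 bp and 660 bp.

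Paralogues of the initiation family differed in the same measure. Among the eIF4A genes, Eif4a1 had 1795 bp and Eif4a2 had 1422 bp, while Eif4a3, whose product works in the exon junction complex, had 573 bp. Among the cap-binding genes, Eif4e had 732 bp, the oocyte gene Eif4e1b 711 bp, and Eif4e2 and Eif4e3 417 bp each. The region of 711 bp lay outside Eif4e1b and also at an end of Tspan17. The region at the other limit of Eif4e1b had 561 bp and was not shared. That at Eif4e3 also lay at an end of Gpr27. Of the scaffold genes, Eif4g2 had 1511 bp and Eif4g1 725 bp. The genes of the start-codon factor eIF1 had 1093 bp for Eif1 and 335 bp for Eif1b, neither of whose 2 regions covered the start of Eif1b. The X-linked Eif1ax had 994 bp, and Eif1a 649 bp, in a region that also lay at an end of Tmed7. Eif5a, the elongation-linked factor that carries hypusine, had 755 bp and Eif5a2 had 902 bp. The repressor genes Eif4ebp1 and Eif4ebp2, whose products hold eIF4E away from eIF4G, had 603 and 291 bp.

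The windows at the widest region of each family are printed to show the sequence at the core of those regions. They lie at chr14:55591072-55591301 for the outer start of Psme2 and chr11:69672394-69672623 for Eif4a1, both on the minus strand. Capitals at an edge can be part of a match that runs past it.
Psme2: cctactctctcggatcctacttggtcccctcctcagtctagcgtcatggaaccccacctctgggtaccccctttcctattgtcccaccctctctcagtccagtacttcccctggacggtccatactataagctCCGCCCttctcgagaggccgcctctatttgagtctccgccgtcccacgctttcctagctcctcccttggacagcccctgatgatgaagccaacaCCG
Eif4a1: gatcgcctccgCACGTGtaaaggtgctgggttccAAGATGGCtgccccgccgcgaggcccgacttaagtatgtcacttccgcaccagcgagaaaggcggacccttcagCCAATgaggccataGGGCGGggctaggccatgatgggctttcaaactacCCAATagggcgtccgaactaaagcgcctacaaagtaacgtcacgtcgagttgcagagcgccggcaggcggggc

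Both windows were covered in full. That of Psme2 held a GC box on the opposite strand 67 bases before the start. At Eif4a1 the region went on for 1516 bp into the transcript, and the window held a CCAAT box that began 43 bases before the start and another 92 bases before it, a GC box at 78, a YY1 match at 166 and an E box at 189 bases before it.

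Regions at both outer limits were found in 3 of 51 proteasome genes (5.88%) and 11 of 56 initiation genes (19.6%), against 8.47% of all protein-coding genes. The latter included 6 of 13 genes named for eIF4A, eIF4E, eIF4G or the helicase helpers Eif4b and Eif4h, a group that also holds Eif4a3 and its copy. These were Eif4a1, Eif4a2, Eif4e, Eif4e1b, Eif4g1 and Eif4g2. The others were Eif2a, Eif2s2, Eif2b5, Eif3b and Eif6, and Psmb8, Psme1 and Psme3 in the proteasome family. Start and far end could be told apart in 11 of these 14. The region at the start was the wider one in 10 of the 11, Psmb8 being the exception, with medians of 732 bp at the start and 244 bp at the far end. At 6 of the 11, the far-end region also lay at an end of a neighbouring gene, as for Eif4a1 with Cd68 (466 bp) and Eif4g1 with Fam131a (576 bp). Of all genes with an annotated start, 11.7% had a region within 1 kb of the far end. In the families it was present in 3 of 43 such proteasome genes (6.98%) and 9 of 44 initiation genes (20.5%). The shares for both limits and for the far end also count genes without any end region. Such a region was present in 92.5% of members, against 62.0% of all protein-coding genes. The reach of 1 kb decided some calls: the far-end region of Eif2s2 lay 944 bp from its limit and was counted, and the inner region of Psmb10 lay 1118 bp from its nearer limit and was not.

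Some regions were shared with neighbouring genes. Of the members with a region at an end, 17 of 46 proteasome genes (37.0%) and 18 of 53 initiation genes (34.0%) had one that also lay at an end of another protein-coding gene, against 27.0% of all genes with a region. That share lies within the 95% Wilson intervals of both families, 24.5 to 51.4% and 22.7 to 47.4%. For 16 of the 80 members with an end region and an annotated start (20%, interval 12.7 to 30.05%), the region also lay at the start of a gene on the opposite strand, against 14.7% of all such genes. Of these regions, 13 covered both starts. These included Psma7 with Ss18l1, whose starts lie 19 bp apart, Psmd13 with the mitochondrial deacetylase gene Sirt3 (85 bp apart), Psma2 with the mitochondrial ribosomal protein gene Mrpl32 (205 bp) and Psmc5 with the rRNA methyltransferase gene Ftsj3 (101 bp). In the initiation family they included Eif2b1 with the transcription factor gene Gtf2h3 (17 bp), Eif2a with Serp1 (63 bp) and Eif1ad with Banf1 (63 bp). The wide region at Psme2 covered its start and that of Rnf31, which encodes a subunit of the linear ubiquitin ligase, 641 bp away. The accessibility of such a region cannot be assigned to either gene.

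Members were seldom near one another. Of the pairs within 200 kb, Psme1 and Psme2 lay 5.91 kb apart on chromosome 14, Psmb5 and Psmb11 7.32 kb apart on the same chromosome, Psmd2 and Eif4g1 9.31 kb apart on chromosome 16, and Psmb9 and Psmb8 10.9 kb apart on chromosome 17. Psmb5 and Psmb11 shared 6 of their 7 distal regions each, so the count near the thymus gene mostly repeats that of its neighbour. Eif2b5 lay 142 kb from Psmd2, which put a proteasome gene and 2 initiation genes, with start regions of 1576, 789 and 725 bp, on 1 stretch of chromosome 16.

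Distal regions within 50 kb, counted inside genes as well as between them, had a median of 3 in the proteasome family (quartiles 2 and 5.5) and 5 in the initiation family (3 and 7). The median over all protein-coding genes was 4 (quartiles 2 and 6). It lay inside the intervals of both family medians, 2 to 5 for proteasome and 4 to 7 for initiation genes. With only regions of at least 150 bp, the initiation median was 3, the same as over all genes. The proteasome median equalled that of all genes with windows of 25 kb (2) and of 100 kb (7). The highest counts in the proteasome family were 16 at Psmd12, a 19S non-ATPase gene, and 12 each at Psma6 and Psmb7. The count includes regions over inner starts, such as the 750 bp region of Psma6. In the initiation family Eif4enif1, which encodes the nuclear import partner of eIF4E, had 31, followed by Eif3k with 15 and by Eif1 and Eif5 with 12 each. Eif4enif1 lies beside Sfi1, which had 55, the highest count of any protein-coding gene. No region was left out here for lying in repeated sequence, and the part of such sequence in these counts was not tested. Without Eif4enif1 the initiation median stayed at 5. No distal region lay near 2 members, Psmb8 and Eif1a (1.87%), against 9.26% of all protein-coding genes. The 13 eIF4A, eIF4E, eIF4G and helper genes described above had a median of 7 and a range of 1 (Eif4g1) to 8, and the 19S ATPase genes a median of 2, with 6 at Psmc2. Neither group was the extreme. The median was 9.5 in the 4 eIF4E-binding repressor genes, Eif4enif1 among them. It was 2 in the 20S alpha subunit genes and 1 in the proteasome activator and immunoproteasome genes. These groups are small and their differences were not tested.

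**Figure D4:**
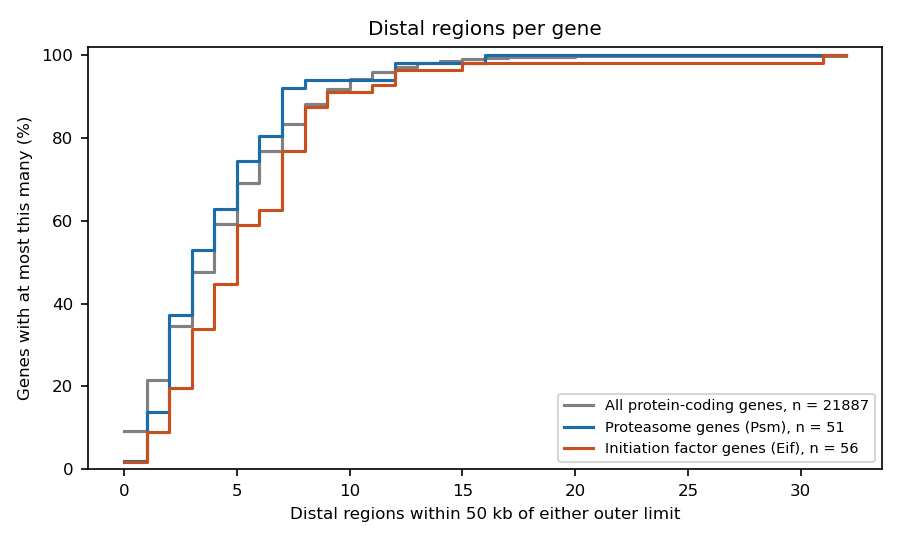
Cumulative share of genes (y axis, %) by the number of distal regions in the 50 kb around the gene (x axis), for 51 proteasome genes, 56 initiation factor genes and all 21887 protein-coding genes. The initiation curve lies to the right of the proteasome curve over most of the range, with medians of 5 and 3 when regions of all widths are counted, and its tail ends at the 31 regions of Eif4enif1.

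The widest distal region near Psmd12 was 596 bp at chr11:107510636-107511231, 12.6 kb from the gene, and that near Psmb7 was 765 bp at chr2:38668682-38669446, 24.7 kb away. Near Eif3k it was 634 bp at chr7:29000948-29001581, 19.1 kb away, and near Eif4enif1 it was 1813 bp at chr11:3181666-3183478, 18.9 kb away, the widest distal region near any member. Whether this region near Eif4enif1 lies in repeated sequence was not tested.

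Regions inside the gene and beyond 1 kb from its limits were found in 16 of 51 proteasome genes (31.4%) and 22 of 56 initiation genes (39.3%), against 43.2% of all protein-coding genes. The median gene length was 11.6 kb in the proteasome family, 18.5 kb in the initiation family and 17.2 kb over all, and its part in these shares was not tested. The highest count was 5 at Eif3h, a subunit gene of eIF3 with a length of 78.9 kb, followed by 4 each at Eif2ak4, Eif4e2 and Eif4g3. No proteasome gene had more than 2, a number reached by Psma3, Psma6, Psmc2, Psmd14 and Psme4. In Psma3 the wider of these, of 919 bp, covered the annotated start, and in Psmc2 one of 584 bp covered the second of its annotated starts.

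The promoter windows, of 250 bases before and 50 after the outermost annotated start, were searched on both strands for 10 short motifs. These were the CCAAT box of NF-Y (CCAAT), the ETS core (CCGGAAG), part of the NRF1 site (GCATGCGC), the antioxidant response element bound by NFE2L1 and NFE2L2 (TGACNNNGC), YY1 (AAGATGGC), the GC box of SP and KLF factors (GGGCGG), the cyclic AMP response element (TGACGTCA), the E box (CACGTG), the core of the interferon-stimulated response element (GAAANNGAA) and NF-kappaB (GGGANTTTC). The antioxidant and cyclic AMP elements share their first letters, and the E box and the cyclic AMP element read the same on both strands. A match is a description of the letters in this window only.

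The ETS core was found in 15 of 43 proteasome windows (34.9%) and 14 of 44 initiation windows (31.8%). The share was 11.9% over all 17492 windows and 20.3% over the 8948 windows whose start was covered by a region. Among members with a covered start it was 40.5% (15 of 37) in the proteasome family and 31.6% (12 of 38) in the initiation family. The GC box was in 55.8% and 72.7% of the family windows, against 46.3% of all and 69.7% of covered ones. Among members with a covered start it was in 62.2% and 76.3%. The E box was in 11.6% of proteasome and 18.2% of initiation windows, against 7.9% of all windows. With a covered start its shares were 10.8% and 18.4%, against 11.1% of all covered ones. The YY1 motif was in 7.0% and 9.1%, against 3.2% of all windows. With a covered start its shares were 8.1% and 7.9%, against 5.0%. The CCAAT box was slightly less frequent in the families, at 37.2% and 31.8%, than in all windows (39.2%).

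**Figure D5:**
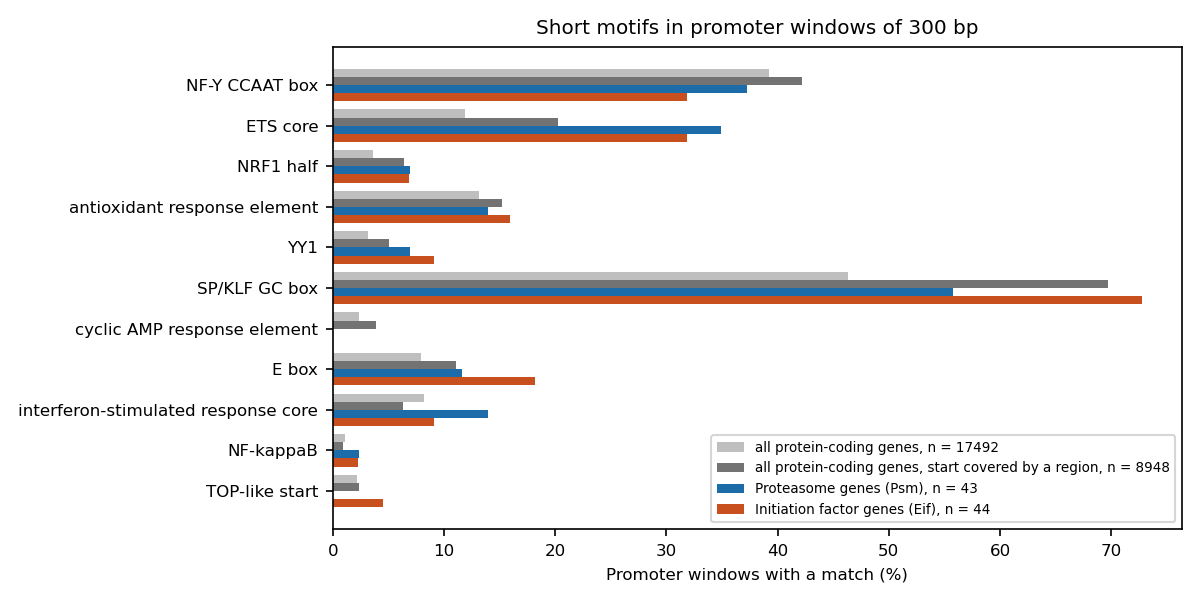
Share of promoter windows of 300 bp with at least 1 match (x axis, %), by motif, for 43 proteasome genes, 44 initiation factor genes, all 17492 genes with a window and the 8948 of them whose start a region covers. The ETS core stands at 34.9 and 31.8% in the families, against 11.9% in all windows and 20.3% in covered ones. The antioxidant response element is at 14.0 and 15.9%, against 13.1 and 15.2%. The family bars include windows whose start is not covered.

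NFE2L1 is the factor known to raise proteasome subunit genes when the proteasome is inhibited. The short form of its element was in 6 proteasome windows (14.0%), those of Psmb5, Psmb6, Psmc6, Psmd9, Psmd12 and Psme4. It was in 15.9% of initiation windows and 13.1% of all windows. With a covered start the shares of this element were 16.2% in the proteasome and 15.8% in the initiation family, against 15.2% of all covered ones. In the windows printed above it began 47 bases before the start of Psmb5 and 9 bases before that of Psmb6. The interferon core was in 6 proteasome windows too (14.0%), of Psmb3, Psmb4, Psmd4, Psmd9, Psme1 and Psmg4, against 8.2% of all windows. With a covered start it was in 5 of 37 (13.5%), against 6.3% of all covered ones. These counts are small and the contrast was not tested. None of the 3 immunoproteasome windows held the interferon letters, and none held the antioxidant or NF-kappaB letters. Eif2ak2 held the interferon core at 18 and at 24 bases past its start. A start at C followed by at least 4 pyrimidines, the form of the terminal oligopyrimidine mRNAs whose translation follows mTOR, was found at 2 of 44 initiation genes (4.5%) and no proteasome gene, against 2.2% of all.

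Genes of the same pathways outside the name rule were listed as partners, and the examples were picked after their values were seen. Of 19 proteasome partner genes that matched the annotation, 17 had a region at an end, with a median width of 873 bp, against 62.0% and 660 bp over all protein-coding genes. They included Nfe2l1 with 1146 bp, Nfe2l2 with 1699 bp, the unfoldase gene Vcp with 1162 bp and the assembly gene Pomp with 619 bp, while Ubqln1 and Ecpas had none. Of 20 initiation partners, 18 had a region, with a median of 703 bp. The poly(A)-binding protein gene Pabpc1 had 1050 bp, the helicase gene Ddx3x 1600 bp and the kinase gene Mtor 817 bp. Larp1 and Pdcd4, both regulators of translation, had none at an end, but 7 and 2 regions inside.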

How the data were processed

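ATAC-seq was run on 8 libraries, and the authors deposited 1 list of region positions in base pairs for all of them, with no count, score or strand. Per the submitters' processing notes, cutadapt, Bowtie2, Picard, SAMtools, bedtools and MACS2 2.1.1 were used with the build GRCm38 (mm10). Their parameters, any shift of reads for the Tn5 insertion and the way libraries were combined are not stated in those sources. The molecule field of the labels reads total RNA, which conflicts with the assay. Gene limits and promoter windows came from RefSeq, GRCm38.p6, and 87 of 107 members had a window. Regions were set against gene limits with a reach of 1 kb and distal windows of 50 kb, in Python 3.11.15 with pandas 2.3.3, and the assignment was checked on simulated data. Where a gene had several starts, motif shares used the outermost one listed. The members, lists and motifs were chosen with earlier results of these data known. Named genes were the catalytic subunit genes and Psmb11, members with no end region, no distal region or regions at both limits (the rule allowed 12 of these, and all 14 are named), the 3 members at each extreme of width, distal and inside counts, the paralogue groups and the neighbours sharing a region. Printed promoters were those of the catalytic genes and of members with the widest regions; Psma6 was added after its values were seen. No test between groups was possible. Alternative reaches, windows, a minimum width of 150 bp and annotated starts alone were tried.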

Additional observations from a re-analysis of the deposited data

How the results depend on the processing

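No paired analysis was possible because the region list has no columns for libraries, so leaving out a replicate could not be run either. Of 36 alternatives, 30 stayed within the interval of the reported value and 6 moved. With a reach of 2 kb, the share of constitutive 20S subunit genes with a region was 100%, against 92.9% as reported, each over 14 genes. With annotated starts alone it was also 100%, but over the 11 of these genes that had an annotated start. In that setting Psma6 was counted through its inner start. The median of distal regions near proteasome genes was 7 with windows of 100 kb and 2 with windows of 25 kb, in each case equal to that of all genes. For initiation factor genes it was 3 with windows of 25 kb, 8.5 with windows of 100 kb and 3 with regions of at least 150 bp. Over all genes it was 2, 7 and 3, so the medians were equal in the last setting. The reported initiation median of 5 had an interval of 4 to 7, which holds the 4 of all genes. Wider windows hold more regions by construction. Of the 3 immunoproteasome genes, 2 had a region at an end with every reach but 2 kb, where Psmb10 was included. Without depth or a value per library, a region open in 1 library cannot be told apart from a region open in all.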
